A study of Mus musculus with 3 samples.

Results

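The interstitial scar of a healing infarct is built from fibrillar collagens and a small set of proteins that organise them, and the genes of this matrix were examined in ribosome-associated RNA taken from the endothelium of the mouse heart. The set was defined by gene name and not by a threshold on its values, although earlier results of these data were known when it was chosen. It holds the collagen chains Col1a1, Col1a2, Col3a1, Col5a1 and Col5a2 and the matrix proteins Postn and Fn1. The leucine-rich proteoglycans Lum and Dcn and the collagen-binding glycoprotein Sparc complete it. All 10 genes were present among the 17583 genes of the deposited table.

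The libraries came from 3 EC-RiboTag mice, whose genotype is Cdh5-CreERT2;Rpl22tm1.1Psam. In this line tamoxifen-activated Cre, driven by the promoter of the endothelial cadherin gene Cdh5, switches ribosomal protein RPL22 to a form with an HA tag, so that anti-HA beads collect ribosomes of recombined endothelial cells together with the RNA bound to them. Per the labels, hearts were taken 7 days after coronary ligation, and the mice are biological replicates of a single group. The labels name the tissue as heart, while each title includes an unexplained Rz, an abbreviation that the study uses in other experiments for the remote zone of infarcted hearts. Among them is a qRT-PCR experiment on EC-RiboTag hearts 7 days after infarction, in which the remote zone was kept apart from the border and infarct zones. The labels do not tie the libraries to that experiment, so whether they hold the whole heart or the remote zone is not settled here. A level below cannot be placed in the scar itself. The study's methods for these libraries mention no infarction, and for its mice in general they describe adults of both sexes on a C57BL/6 background without giving the age or sex of each of these animals. No uninfarcted heart, input homogenate or mouse without Cre was analysed here, so that the data hold levels, ratios within a mouse and the spread between mice, but no change upon infarction and no enrichment over the tissue.

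As background, type I collagen, a trimer of Col1a1 and Col1a2 chains, and type III collagen, a trimer of Col3a1 chains, form the bulk of cardiac fibrils, and type V collagen, made from Col5a1 and Col5a2 chains, lies within these fibrils and starts their assembly. Fibronectin (Fn1) is laid down early and serves as a scaffold for collagen, periostin (Postn) is a matricellular protein of injured tissue, lumican (Lum) and decorin (Dcn) bind fibrils and limit their thickness, and Sparc binds collagen as it is secreted and deposited. In the heart these genes are best known as products of fibroblasts, whereas endothelial cells are known mainly for the basement membrane and also for Sparc and Fn1.

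Promoter sequence was at hand for 5 of the 10 genes in the RefSeq promoter table, whose coordinates are on GRCm38.p6. These genes are shown because the table holds them, and a link between promoter sequence and the spread between mice was not tested. Each line gives the 200 bases before the start site held in that table, 5′ to 3′ on the strand of the gene. Capitals mark exact matches, on either strand, to 3 elements common in promoters. The first is the motif of nuclear factor Y, spelled CCAAT and called the CCAAT box, the second is the TATA box, spelled with the letters TATAAA, and the last is the GC box, which was searched for as GGGCGG. For Postn the table holds more than one start, and the promoter shown is that of the start 27 bases downstream of the start of the canonical transcript. The start used lies 125 bases downstream of the canonical start for Col1a2 and 40 for Col5a1, and at the canonical start for Col3a1 and Sparc. The ends of the Col1a2, Col5a1 and Postn windows thus lie downstream of the canonical start. These ends include the CCAAT box of Col1a2 and the TATA box of Postn. Promoters of Col1a1, Col5a2, Fn1, Lum and Dcn are not shown.
Col1a2, chr6:4505418-4505617, plus strand: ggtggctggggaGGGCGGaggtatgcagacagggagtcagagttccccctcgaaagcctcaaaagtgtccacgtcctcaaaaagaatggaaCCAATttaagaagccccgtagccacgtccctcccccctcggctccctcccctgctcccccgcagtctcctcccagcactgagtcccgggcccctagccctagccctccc
Col3a1, chr1:45311338-45311537, plus strand: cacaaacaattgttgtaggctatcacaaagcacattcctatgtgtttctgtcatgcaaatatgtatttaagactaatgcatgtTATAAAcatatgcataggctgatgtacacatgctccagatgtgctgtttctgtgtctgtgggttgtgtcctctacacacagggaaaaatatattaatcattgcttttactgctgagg
Col5a1, chr2:27886225-27886424, plus strand: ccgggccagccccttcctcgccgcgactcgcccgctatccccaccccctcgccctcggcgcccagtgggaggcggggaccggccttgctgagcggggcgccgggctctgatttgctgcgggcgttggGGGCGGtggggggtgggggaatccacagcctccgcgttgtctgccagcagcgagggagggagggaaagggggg
Postn, chr3:54360907-54361106, plus strand: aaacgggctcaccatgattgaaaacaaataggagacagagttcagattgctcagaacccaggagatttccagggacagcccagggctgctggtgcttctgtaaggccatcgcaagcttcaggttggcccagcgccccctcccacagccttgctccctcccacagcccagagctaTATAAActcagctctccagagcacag
Sparc, chr11:55420081-55420280, minus strand: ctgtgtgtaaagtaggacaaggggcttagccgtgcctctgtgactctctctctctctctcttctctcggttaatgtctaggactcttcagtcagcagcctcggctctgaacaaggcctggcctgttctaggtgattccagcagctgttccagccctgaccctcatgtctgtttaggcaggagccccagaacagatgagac

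The Col1a2 window held 1 CCAAT box and 1 GC box, the Col5a1 window held 1 GC box, and the Col3a1 and Postn windows held 1 TATA box each. None of the 3 motifs was found in the Sparc window, and no matches overlapped each other. Over 32851 promoter windows of the same length, 29.3% held a CCAAT box, 9.96% a TATA box and 31.0% a GC box, so that each of these motifs is common and its presence is a description only.

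Values are the authors' DESeq2-normalized counts, rounded to whole numbers, so that a value stands for about that number of sequenced reads, after duplicate removal, in a library of average depth. The 3 libraries summed to between 7149102 and 7268785 normalized counts. The set took 6212 of these in mouse 1, 7930 in mouse 2 and 8167 in mouse 3, which is 0.0869%, 0.111% and 0.112% of each total. Mouse 1 gave the smallest share. With 3 mice the spread is that between animals and their immunoprecipitates together, and in these bulk samples fewer cells of a type and less RNA per cell cannot be told apart.

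Mouse 1 stood apart from the others in sex-linked transcripts. Xist, the RNA that silences an X chromosome in females, had 4, 618 and 869 normalized counts in mice 1, 2 and 3. Ddx3y, a gene on the Y chromosome, had 1080, 3 and 1. Mouse 1 was thus the only library with the Y-linked transcript at more than a few counts, and wherever it differs from mice 2 and 3 below, the sex of the animal and the individual library cannot be told apart.

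The fibrillar collagens of types I and III were detected at between 378 and 798 normalized counts in every mouse. Col1a1 (ENSMUSG00000001506, mm39 chr11:94827050-94843868, plus strand, with 51 exons in its canonical transcript) had 378, 642 and 401 normalized counts in mice 1, 2 and 3, a mean of 473.7 ± 146.2 (SD, n = 3) and rank 5784 of 17583 genes by mean. Its value in mouse 2 stood above those of the other mice, which lay close together. Col1a2 (ENSMUSG00000029661, chr6:4504814-4541544, plus strand, 52 exons), the partner chain of the type I trimer, had 454, 669 and 531 normalized counts, a mean of 551.3 ± 108.9 (SD, n = 3), and ranked 4993. Its order of mice was the same as that of Col1a1, with mouse 1 lowest and mouse 2 highest. Col3a1 (ENSMUSG00000026043, chr1:45350698-45388866, plus strand, 51 exons) had 388, 798 and 655 normalized counts, a mean of 613.7 ± 208.1 (SD, n = 3) and rank 4426. Here mouse 1 stood apart at the low end, and its value was 2.06-fold below that of mouse 2.

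Of the type V chains, Col5a1 lay below the type I and III chains and Col5a2 lay among them. Col5a1 (ENSMUSG00000026837, chr2:27776437-27929526, plus strand, 66 exons) had 214, 455 and 386 normalized counts, with a mean of 351.7 ± 124.1 (SD, n = 3), and at rank 7235 it was the lowest of the 10 genes by normalized count. Col5a2 (ENSMUSG00000026042, chr1:45413481-45542442, minus strand, 54 exons) had 402, 550 and 564 normalized counts, a mean of 505.3 ± 89.8 (SD, n = 3) and rank 5449. Both chains were lowest in mouse 1. Col3a1 and Col5a2 lie 24.6 kb apart on chromosome 1, on opposite strands and with no annotated gene between them. Their values did not order mice 2 and 3 alike, since Col3a1 was higher in mouse 2 and Col5a2 was slightly higher in mouse 3.

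Among the proteins deposited with the early scar, Postn (ENSMUSG00000027750, chr3:54268530-54298458, plus strand, 21 exons) had 344, 741 and 671 normalized counts, a mean of 585.3 ± 211.9 (SD, n = 3) and rank 4688. It had the widest relative spread of the set, with 2.15-fold between its highest and lowest mouse, mouse 1 being low and the others close to each other. Its rank among all genes was 7240 in mouse 1, 3441 in mouse 2 and 3987 in mouse 3. Fn1 (ENSMUSG00000026193, chr1:71624679-71692359, minus strand, 46 exons) had 940, 1188 and 1528 normalized counts, a mean of 1218.7 ± 295.2 (SD, n = 3), and ranked 1275. It was lowest in mouse 1 and, unlike Postn, highest in mouse 3, where it ranked 699.

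The small leucine-rich proteoglycans showed another order of mice. Lum (ENSMUSG00000036446, chr10:97400990-97408565, plus strand, 3 exons) had 458, 309 and 618 normalized counts, a mean of 461.7 ± 154.5 (SD, n = 3) and rank 5918. Dcn (ENSMUSG00000019929, chr10:97315471-97354005, plus strand, 8 exons) had 813, 579 and 1007 normalized counts, a mean of 799.7 ± 214.3 (SD, n = 3) and rank 3094. Both were lowest in mouse 2, intermediate in mouse 1 and highest in mouse 3, whereas 4 of the 5 collagen chains were highest in mouse 2. Lum and Dcn are neighbours on chromosome 10, 47.0 kb apart on the same strand with no annotated gene between them.

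Sparc was the most abundant gene of the set. Sparc (ENSMUSG00000018593, chr11:55285326-55314009, minus strand, 10 exons) had 1821, 1999 and 1806 normalized counts, a mean of 1875.3 ± 107.4 (SD, n = 3), and ranked 314 of 17583. Its values were close in all mice, with 1.11-fold between the highest and the lowest. Duplicate removal keeps at most about 1 single-end read per start position, and Sparc stood at 0.812 normalized counts per base of its canonical transcript, so that its level and its spread are limited from above by this step. At the other 9 genes the value per base was between 0.0416 and 0.188 on the canonical length. Over only those bases that lie within its deposited gene span, Dcn was at 0.455.

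**Figure D1:**
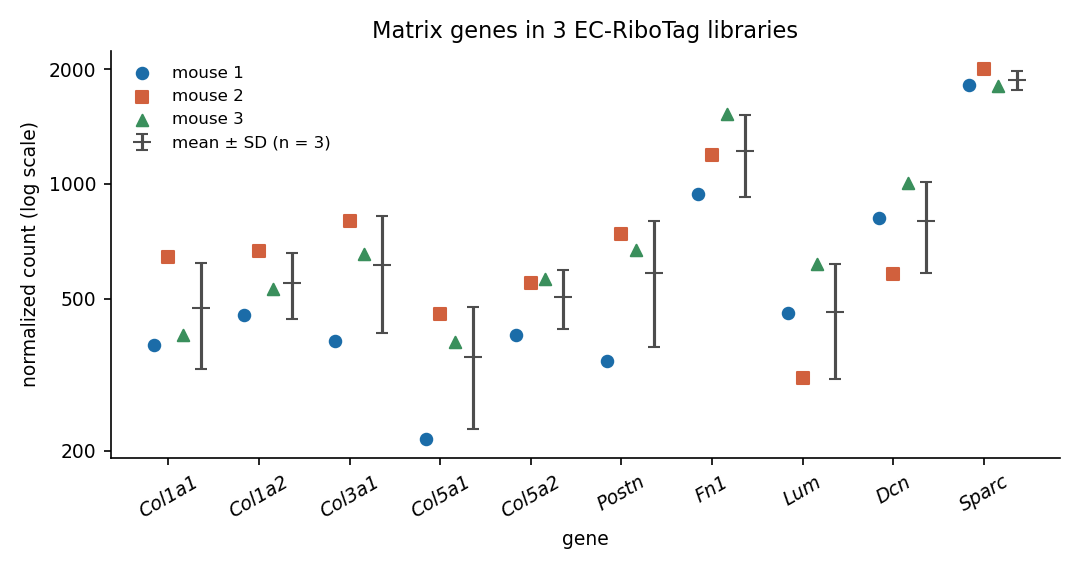
Normalized count (log axis) of the 10 matrix genes in each of the 3 mice, with a bar for the mean ± SD (n = 3) at the right of each gene. Mouse 1 (circles) is lowest for 7 genes, mouse 2 (squares) is lowest for Lum and Dcn, and the Sparc values lie between 1806 and 1999.

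Each gene was then divided by the length of its canonical transcript, since levels of different genes can be compared only per length. Mean levels in normalized counts per kilobase (± SD, n = 3) ran in the order Sparc 812.2 ± 46.5, Lum 187.7 ± 62.8, Postn 184.9 ± 66.9, Fn1 144.9 ± 35.1, Dcn 131.0 ± 35.1, Col3a1 110.3 ± 37.4, Col1a2 102.9 ± 20.3, Col1a1 79.9 ± 24.7, Col5a2 66.9 ± 11.9 and Col5a1 41.6 ± 14.7. Neighbours in this order were taken to differ beyond their spread where the difference of their means exceeded the larger SD and all mice kept the order. Of the 9 neighbouring pairs, 2 met this: Sparc stood above Lum and Col5a2 stood above Col5a1. Col1a2 was above Col1a1 in all 3 mice, but the difference of 23.0 normalized counts per kilobase was below the larger SD of 24.7. From Lum down to Col5a2 no gene was separated from the next one in the order, and genes further apart in it were not compared by this measure. The place of Dcn depends on its transcript model. The canonical transcript in the annotation used for lengths holds 6104 bases, of which 1758 lie within the deposited span of the gene. Reads beyond that span were not counted to Dcn, so that 131.0 normalized counts per kilobase understates its level. Over the 1758 bases alone Dcn would stand at 454.9 normalized counts per kilobase, second to Sparc.

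Ratios of gene pairs within a mouse remove any factor that scales a whole library, and 7 pairs were examined. For the type I trimer, the log2 ratio of Col1a1 to Col1a2, per kilobase, was -0.41, -0.21 and -0.55 in mice 1, 2 and 3, a mean of -0.39 ± 0.17 (SD, n = 3) or a ratio of 0.764. The α1(I) chain enters the trimer in excess over α2(I), whereas its transcript was the lower of the pair in all 3 mice on this length. Col3a1 was above Col1a1 by log2 ratios of 0.13, 0.41 and 0.80, with a mean of 0.45 ± 0.34 (SD, n = 3). The size of this difference varied between mice although its direction did not.

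Col5a1 lay below Col5a2, with log2 ratios per kilobase of -1.07, -0.43 and -0.71 and a mean of -0.74 ± 0.32 (SD, n = 3). The difference was largest in mouse 1, where Col5a1 was at its lowest. The ratio of Dcn to Lum was the steadiest of the 7, with log2 values of -0.48, -0.41 and -0.61 and a mean of -0.50 ± 0.10 (SD, n = 3). Thus both proteoglycans differed between mice by a similar factor. The sign of this ratio turns with the length: the mean log2 ratio was 0.81 without division by length and 1.29 over the bases within the deposited gene span. The value of 1.29 is the one that uses only bases in which reads could be counted to Dcn.

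Fn1 was above Col1a1 by log2 ratios per kilobase of 0.81, 0.38 and 1.43, a mean of 0.87 ± 0.52 (SD, n = 3) with the widest spread of the pairs. Sparc was above Fn1 by 2.82, 2.62 and 2.11, a mean of 2.51 ± 0.37 (SD, n = 3) or 5.71-fold, in all 3 mice, a ratio limited from above by duplicate removal at Sparc. Postn and Fn1 changed places between mice, with log2 ratios of -0.04, 0.73 and 0.22 and a mean of 0.30 ± 0.39 (SD, n = 3). The two-sided exact sign-flip permutation test gave p = 0.25 for the other 6 pairs, the smallest value that 3 mice allow, and p = 0.5 for Postn to Fn1 (Benjamini-Hochberg over 7 pairs: 0.292 and 0.5), so that this test could not pass 0.05 for any pair. On the length of all annotated exons joined, Col1a1 to Col1a2 turned to 0.70, Col3a1 to Col1a1 to -0.29 and Postn to Fn1 to -0.25, and Postn to Fn1 was -1.11 without division by length. On the same joined length Fn1 to Col1a1 shrank to 0.11 (exact p = 0.75) and Col5a1 to Col5a2 to -0.22 (exact p = 0.5), and neither kept one sign in all mice.

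**Figure D2:**
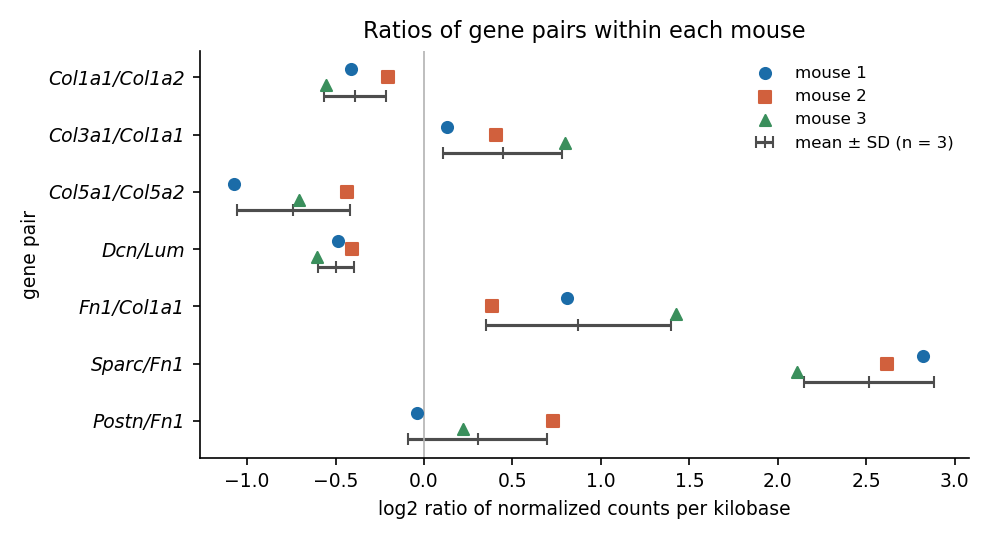
Log2 ratio of normalized counts per kilobase of canonical transcript for 7 gene pairs, 1 symbol per mouse, with a bar for the mean ± SD (n = 3) under each pair. For 6 pairs all mice lie on the same side of 0, while Postn/Fn1 runs from -0.04 to 0.73.

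Most of the matrix genes varied between the mice more than other genes did. The coefficient of variation (CV, the SD as a percent of the mean) was above 20% for 7 of the 10 genes, namely Postn (36.2%), Col5a1 (35.3%), Col3a1 (33.9%), Lum (33.5%), Col1a1 (30.9%), Dcn (26.8%) and Fn1 (24.2%). Of the 9358 genes whose mean reached 200 normalized counts, 749 or 8% had a CV above 20%, and the median CV was 7.37%. Just under the threshold lay Col1a2 at 19.8% and Col5a2 at 17.8%, and Sparc was at 5.72%. Counting of independent reads alone would give a CV between 2.31% for Sparc and 5.33% for Col5a1. The observed CV was 2.48 times this counting CV for Sparc and between 3.99 and 8.76 times for the other 9 genes. The counting CV takes no account of duplicate removal, which limits the count of Sparc, so that for Sparc it is only a rough figure.

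The level of a gene bears on its spread in this table. Genes below 0.2 normalized counts per base of canonical transcript, where 9 of the 10 lie, had a median CV of 8.76%, and 12.1% of them had a CV above 20%. Dcn, however, stood at 0.455 over the bases within its deposited span. Genes from 0.2 to 0.5 had a median CV of 6.38%, and 2.97% of them had a CV above 20%. Among the 132 genes at 0.7 or more per base, where Sparc lies, the median CV was 4.88% and 1.52% had a CV above 20%.

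Leaving out a mouse changed which genes passed. Without mouse 1, 3 of the 10 genes had a CV above 20% (Col1a1, Lum and Dcn), against 4.84% of all genes. The CV of Postn fell to 7.01%, that of Col5a1 to 11.6% and that of Col3a1 to 13.9%. Without mouse 2, 6 genes passed (9.86% of all genes), and Col1a1 was at 4.18%. Without mouse 3, 8 passed (8.71% of all genes), and Fn1 was at 16.5%.

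**Figure D3:**
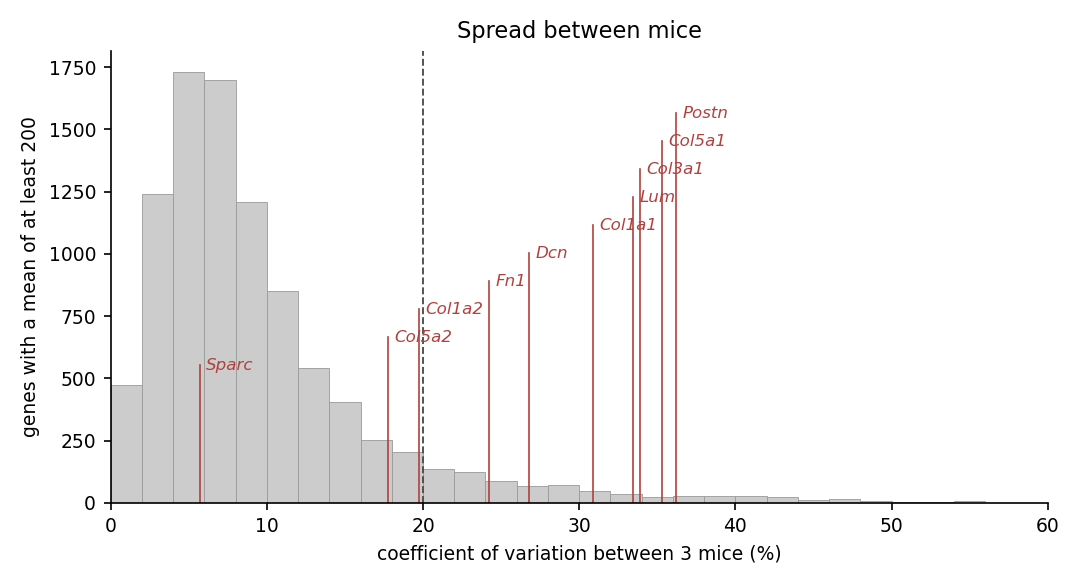
Histogram of the CV between the 3 mice for genes with a mean of at least 200 normalized counts, with a line for each of the 10 matrix genes and a dashed line at 20%. Sparc lies in the bulk of the genes at 5.72% and 7 genes lie to the right of the dashed line, and 6 genes above 60% are outside the axis.

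Mouse 1 was the lowest of the mice for 7 of the 10 genes, all 5 collagen chains, Postn and Fn1, whereas 32.2% of all genes that reached a mean of 200 were lowest there. Of these 7, 5 also had a CV above 20%, a combination held by 5.2% of all genes. Lum and Dcn formed the other pattern, a CV above 20% with the lowest value in mouse 2, which 2.19% of all genes showed. As log2 of the value over the geometric mean of the 3 mice, the median over the 10 genes was -0.30 in mouse 1, 0.22 in mouse 2 and 0.19 in mouse 3. For all genes that reached this mean the medians were 0.01, 0.01 and -0.01, so that the libraries as a whole were level. With mouse 1 left out, the median over the set was 0.072 in mouse 2 and -0.072 in mouse 3.

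The level of the set was next compared with related genes, described by list medians in normalized counts per kilobase. Other fibrillar collagen chains were far lower, with a list median of 6.46 against 121.1 for the 10 genes, a log2 difference of 4.29 ± 0.37 (SD, n = 3). Of this list of 6, Col2a1 of cartilage was not listed in the table, Col11a1 had 1, 6 and 2 normalized counts, and the highest per length were Col27a1 (166, 369 and 243) and Col5a3 (142, 196 and 165). Both were lowest in mouse 1 and highest in mouse 2, as Col1a1, Col1a2, Col3a1 and Col5a1 were.

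The genes that modify, process and crosslink collagen lay nearer to the set, with a list median of 70.7 and a log2 difference of 0.81 ± 0.21 (SD, n = 3). On the length of all exons joined this difference was -0.031, so that which of the lists lay higher turned with the length used. All 19 were listed, 12 had a mean of at least 200, and 10 of these 12 were lowest in mouse 1. Highest per length were the collagen chaperone Serpinh1 (1575, 1775 and 1615 normalized counts), the prolyl hydroxylase subunit P4hb (1617, 1768 and 1559), which also serves other proteins, and the procollagen proteinase enhancer Pcolce (586, 707 and 641). Serpinh1 and P4hb had CVs of 6.39% and 6.55%, close to that of Sparc. They stood at 0.589 and 0.561 normalized counts per base, so that duplicate removal bears on their level and spread too. Genes from 0.5 to 0.7 per base had a median CV of 5.39%, and 0.484% of them had a CV above 20%. The crosslinking enzymes Lox (243, 300 and 456) and Loxl2 (181, 350 and 289) were the 2 genes of the list that reached this mean with a CV above 20%, and both were lowest in mouse 1. They are named for this spread, after their values were seen.

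Of the 24 other interstitial matrix genes, 13 had a mean of at least 200, and 7 of these had a CV above 20%, 6 of them with the lowest value in mouse 1. The list median was 52.9, below the set by a log2 difference of 1.23 ± 0.27 (SD, n = 3). Highest per length were the proteoglycan Bgn (1284, 1343 and 1538 normalized counts), elastin Eln (1363, 1846 and 1516) and the fibulin Fbln2 (1572, 1616 and 1676), and the lowest were Col12a1 (38, 54 and 52), Fmod (12, 12 and 35) and Vcan (43, 123 and 77). The genes of the list that were lowest in mouse 2, as Lum and Dcn were, numbered 2 and are named after their values were seen: Comp, a protein of cartilage and tendon, had 367, 193 and 524 normalized counts, and Prelp, a proteoglycan of the same family as Lum and Dcn, had 952, 925 and 1268. The drop in mouse 2 was seen in Comp, with a CV of 45.8%, while Prelp differed little between mice 1 and 2.

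Basement membrane genes, in contrast, lay above the set. Their list median was 280.1, and the set was lower by a log2 difference of -1.22 ± 0.09 (SD, n = 3), or 0.429-fold. All 12 had a mean of at least 200, 11 were lowest in mouse 1, and 3 had a CV above 20%. The type IV collagen chains Col4a1 (3532, 3766 and 3816 normalized counts) and Col4a2 (2786, 3015 and 3159) were the highest per length, with Col4a1 at 560.0 normalized counts per kilobase against 110.3 for Col3a1, and their CVs were 4.09% and 6.30%. At 0.560 and 0.443 normalized counts per base they lay nearer than Col3a1, at 0.110, to the limit set by duplicate removal. This step bears on both their level and their spread.

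Receptors of matrix had a list median of 53.5, and 8 of 12 had a mean of at least 200. The set was higher by a log2 difference of 1.19 ± 0.11 (SD, n = 3). The integrin β1 subunit Itgb1 (2376, 2546 and 2378 normalized counts), which pairs with most matrix-binding α subunits, was the highest per length, followed by the fibronectin receptor subunit Itga5 (1062, 1274 and 1410). Collagen receptors of the list differed widely in level. The subunit Itga1 had 2539, 2249 and 2582 normalized counts, the highest mean of the list before division by length. It was lowest in mouse 2 and is named after its values were seen. The subunit Itga2 had 35, 110 and 103, and Itga11, known from fibroblasts, had 9, 22 and 13. The collagen receptor Ddr2, which is also one of the fibroblast markers below, had 111, 227 and 228.

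**Figure D4:**
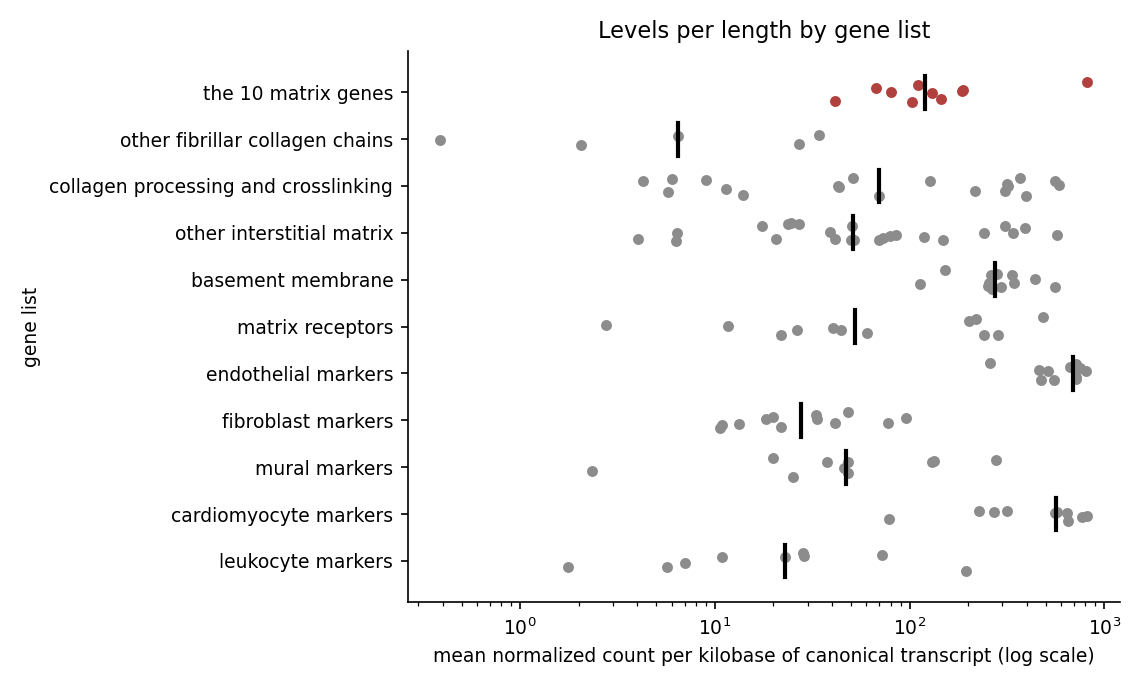
Mean normalized count per kilobase of canonical transcript (log axis) of each gene in the 10 matrix genes and in 10 other lists, 1 point per gene, with a bar at the median of the plotted gene means. The 10 matrix genes lie above the fibroblast, mural and leukocyte markers and below the endothelial and cardiomyocyte markers by their medians, with Sparc alone at the endothelial level on this length.

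Markers of the cell types that a heart immunoprecipitate can hold were then set beside the matrix genes. Endothelial markers were abundant: their list median was 671.9 normalized counts per kilobase, 5.62-fold above the set. Like Sparc, several of them lay near the limit that duplicate removal sets, with Eng at 0.809 and Pecam1 at 0.747 normalized counts per base, so that both the level of the list and its small spread between mice are limited by this step. Of the list, Cdh5, whose promoter drives the Cre, had 2808, 2860 and 2930 normalized counts. The 12 genes summed to between 28097 and 29358 normalized counts per mouse, none was at 0, and 1 of the 12, Vwf (1898, 1886 and 3098), had a CV above 20%. Cardiomyocyte markers were also present at 565.2 per kilobase by list median, with the myosin light chain Myl2 at 729, 701 and 605. Their sums were 20679, 21339 and 24237 in mice 1, 2 and 3. The limit set by duplicate removal bears on several of them too, with Myl2 at 0.819 and Tnnt2 at 0.769 normalized counts per base. Others lay far from it, with Ttn at 0.0785 and Ryr2 at 0.226. Neither list had its lowest median in mouse 1, although the cardiomyocyte sum and 4 of the 10 cardiomyocyte markers were lowest there.

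Fibroblast markers were low but present in every mouse. The list median was 28.8 normalized counts per kilobase, and the set lay above it by log2 differences of 2.11, 2.13 and 1.99, a mean of 2.08 ± 0.08 (SD, n = 3) or 4.22-fold. None of the 12 was at 0 in any mouse. The highest per length were Pi16 (453, 541 and 490 normalized counts), Htra3 (176, 191 and 269) and Dpt (178, 215 and 252), and the defining markers Pdgfra and Tcf21 had 196, 203 and 258 and 16, 29 and 45. The summed level of the list was 1462, 1857 and 2044 in mice 1, 2 and 3, so that by this sum mouse 1 was lowest, as in the collagens. The 4 markers that reached a mean of 200 were all lowest in mouse 1. Of all 12 markers 10 were lowest there, while Scara5 (35, 34 and 55) and Dpep1 (45, 26 and 82) were lowest in mouse 2. The part of fibroblast RNA in the matrix values was not tested, since neither an input nor a library without Cre was analysed here.

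Mural markers summed to 2616, 2804 and 3102 normalized counts, and the set lay above their median by a log2 difference of 1.39 ± 0.18 (SD, n = 3). The lowest of them per length were Cnn1 (1, 4 and 12) and Myh11 (31, 118 and 240) of smooth muscle and the pericyte proteoglycan Cspg4 (134, 295 and 186), and all 3 were lowest in mouse 1. Other mural markers did not follow: Des, which cardiomyocytes also express (1005, 798 and 816), and the pericyte channel genes Kcnj8 (138, 85 and 119) and Abcc9 (383, 301 and 396) were lowest in mouse 2, and the pericyte gene Rgs5 (542, 615 and 505) was lowest in mouse 3. Thus 6 of the 10 mural markers were lowest in mouse 1. Leukocyte markers summed to 722, 989 and 984, with the pan-leukocyte gene Ptprc at 94, 190 and 154, and the T cell gene Cd3e was not listed. The set lay above them by 2.41 ± 0.08 (SD, n = 3) on the log2 scale, and none of the 9 listed leukocyte markers was at 0. The part of either cell type in the matrix values was not tested.

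Across lists, the median log2 deviation from the gene's mean was lowest in mouse 1 for all 5 matrix and receptor lists and for 3 of the 5 marker lists. In mouse 1 it was -0.42 for other fibrillar chains, -0.37 for other interstitial matrix, -0.30 for receptors, -0.21 for collagen processing and -0.16 for basement membrane, beside -0.30 for the set. It was -0.58 for leukocyte, -0.38 for mural and -0.22 for fibroblast markers, but 0.02 for endothelial and 0.09 for cardiomyocyte markers. In these last lists duplicate removal limits the spread of several genes. The low median of mouse 1 was thus shared by interstitial matrix, basement membrane and the markers of fibroblasts, mural cells and leukocytes. Not every gene followed, since 10 of the 12 fibroblast markers and 6 of the 10 mural markers were lowest there.

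**Figure D5:**
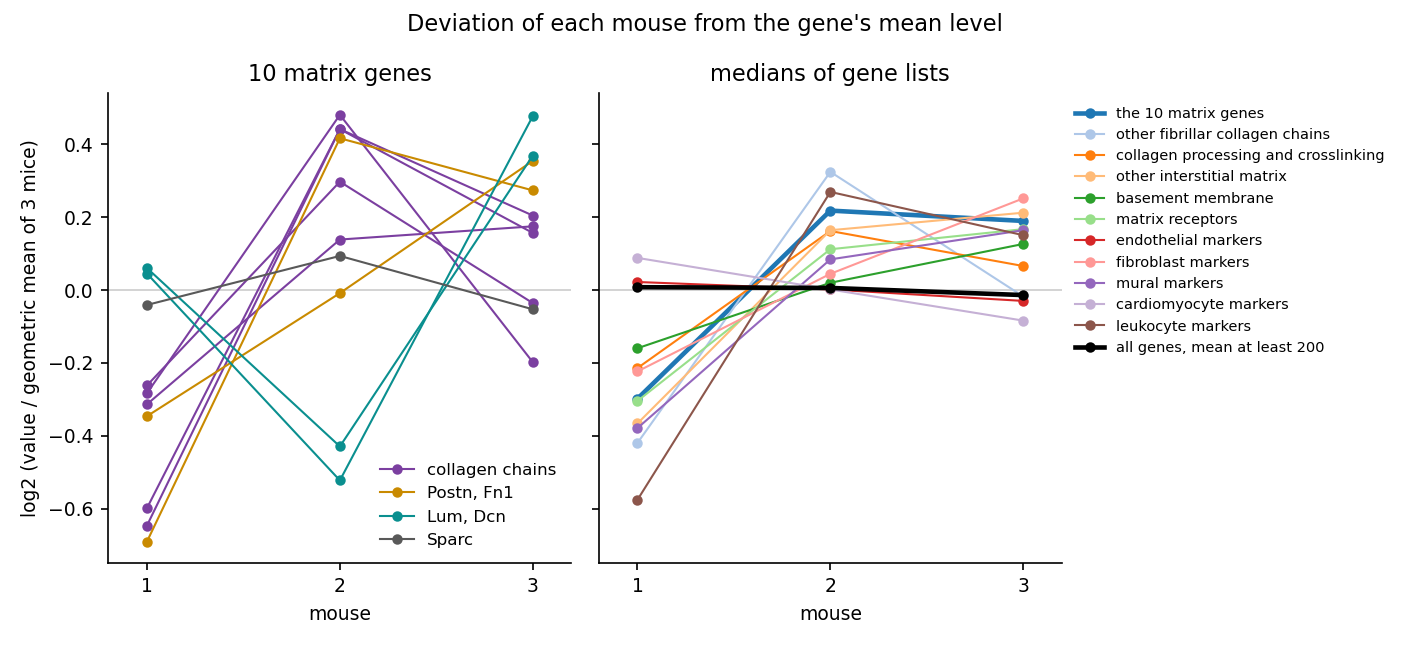
Log2 of the value in each mouse over the geometric mean of the 3 mice, for the 10 matrix genes (left) and as medians of each gene list (right), where lines join the values of a gene or list and imply no order of the mice. The collagen chains, Postn and Fn1 are below 0 in mouse 1, Lum and Dcn are below 0 in mouse 2, and the medians of endothelial markers and of all genes stay near 0.

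Outside the lists, the genes nearest to the median pattern of the set over the 3 mice, by Euclidean distance of the log2 deviations among 9268 genes with a mean of at least 200, were Grk3 (160, 228 and 225 normalized counts), Rbbp8 (367, 522 and 511), Nktr (695, 1002 and 978), Cad (180, 256 and 254) and the nuclear RNA Malat1 (913, 1322 and 1288). Their distances were 0.0636 to 0.0644. The deviations of a single gene cancel out over the 3 mice, whereas the medians of the set do not. No gene can therefore come much nearer than this, and these distances are mostly that floor. Within a distance of 0.1 lay 59 genes, 0.637% of those compared, and the likeness is a description over 3 mice only.

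Few bases of the set were shared with other loci. Of all 72-base windows of the canonical transcripts, 47 of 7481 in Col5a2 and 10 of 6033 in Dcn had an exact copy elsewhere in the genome, and the other 8 genes had none. On the same strand, an exon of another annotated gene overlapped an exon of the set only at Col3a1, over 141 bases or 1.37% of its exonic bases.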

How the data were processed

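RNA bound to HA-tagged endothelial ribosomes of 3 hearts was sequenced as single-end 72-base reads. Per the study's methods and the submitters' processing notes, the authors trimmed reads with Trimmomatic 0.39, aligned them with STAR 2.7.11a to mm39 (Ensembl), removed duplicates with Picard 3.1.1 as well as multi-mapping, ribosomal and mitochondrial reads, and counted reads on the sense strand with featureCounts 2.0.4, leaving out reads that overlap several genes. They normalized the counts with DESeq2 1.36.0. The deposited values are these normalized counts rounded to whole numbers, treated here as a score with a true zero and not as raw counts, so that no count model was fitted. Duplicate removal caps highly covered genes and reads in repeats are lost.

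Samples were assigned to 1 group by their titles. Means, SDs, CVs and ranks were computed from the deposited values with Python 3.11.15, numpy 2.4.6 and pandas 2.3.3, and the code was tested on simulated data. Levels per kilobase used the canonical transcript of GENCODE on GRCm39, which is newer than the authors' annotation and gave a length for 17475 of 17583 genes. The CV was read at 20% among genes with a mean of at least 200. Pair ratios were tested by a two-sided exact sign-flip permutation test, whose smallest p is 0.25 with 3 mice. Exact copies of 72-base windows were searched with BLAST 2.17.0. From the deposited values 1 read was worth 0.977, 1.06 and 0.961 normalized counts in mice 1, 2 and 3, which puts the depth at an estimated 7318900, 6754660 and 7565350 counted reads. Counting CVs cover the counting error of independent reads only and take no account of duplicate removal.

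The genes and lists were chosen with earlier results of these data known. Besides the 10 genes, in general at most the 3 highest and 3 lowest genes of a list per length were named, together with genes not listed, markers that define a cell type or whose order of mice differed from the rest of their list (chosen after their values were seen), and the 5 genes outside the lists nearest to the median pattern of the set. Alternatives were other scalings, other lengths, other limits on the mean and CV, a pseudocount of 0.5, and leaving out each mouse.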

Additional observations from a re-analysis of the deposited data

How the results depend on the processing

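Rescaling by trimmed means of log ratios or to equal totals left 7 genes of the set with a CV above 20%. Among all genes 746 and 740 then had such a CV, in place of 749. No direction changed, but pair ratios and list differences could not change, since a factor for a whole library cancels within a mouse. The factors lay between 0.994 and 1.01, so that the other results could move little. The choice of transcript length mattered most, and why was not tested. On the joined length of all annotated exons, 1 neighbouring pair of genes differed beyond its spread in place of 2, the mean log2 ratio was 0.70 for Col1a1 to Col1a2, -0.29 for Col3a1 to Col1a1 and -0.25 for Postn to Fn1, and the median of the 10 genes lay from the lists' medians by -0.031 for collagen processing, 3.53 for other fibrillar chains, 0.83 for other interstitial matrix, -1.77 for basement membrane, 0.64 for receptors, 1.68 for fibroblast, 0.97 for mural, -1.66 for cardiomyocyte and 2.64 for leukocyte markers. Without division by length the log2 ratio was 0.81 for Dcn to Lum and -1.11 for Postn to Fn1. Over canonical exons within the deposited gene span, an alternative chosen after seeing the data, Dcn to Lum was 1.29 and the difference from leukocyte markers 2.30. With geometric means in place of medians the differences were -1.11 for basement membrane, 1.08 for receptors, 2.23 for fibroblast, 1.67 for mural, -1.69 for cardiomyocyte and 2.84 for leukocyte markers. The number of genes of the set with a CV above 20% was 7 with a minimum mean of 100 (11.6% of all genes) and with no minimum (35.9%), and 9 at a threshold of 15% (14.9%). Leaving out each mouse in turn gave 3 to 8 such genes, 2 to 4 neighbouring pairs beyond their spread (4 without mouse 2), and a median deviation in mouse 3 of -0.072 to 0.23, negative without mouse 1. All pair ratios kept their direction when a mouse was left out. No paired analysis was possible because all samples belong to a single group. The exact sign-flip test could not pass 0.05 with 3 mice, and the depth sets the counting error of the low genes.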
